A study of Mus musculus with 16 samples.

Results

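Transcripts of 10 genes that carry signals to NF-kB were followed in sorted mouse thymocytes: Chuk, Ikbkb and Ikbkg, which encode the IKK complex, and Map3k14, Traf2, Traf3, Birc2, Birc3, Tnfaip3 and Cyld, which encode kinases, adaptors and ubiquitin enzymes that switch it on or off. The genes were chosen by symbol, not by level. All 10 were among the 46517 gene identifiers of the count files, and all 10 passed the filter on low counts that left 14933 genes to be tested. RNA came from live CD4+CD8+ (double-positive) thymus cells sorted by flow cytometry from 16 mice, 1 library per mouse, at 6 to 7 weeks of age. All mice were on the NOD-AI4 background, a non-obese diabetic strain with the transgenic T cell receptor of AI4, a CD8 T cell clone that recognises self. The groups were NOD-AI4-60A mice, which carry an Nfkbid transgene (5 mice: 3 males, 2 females), NOD-AI4-Nfkbid-/- mice (5 mice: 4 males, 1 female) and NOD-AI4 control mice (6 mice: 3 males, 3 females). The promoter of the transgene and the design of the knockout allele are not given in the sources used here. Nfkbid encodes a nuclear IkB protein, and the series title sets its overexpression and ablation beside thymic deletion of AI4 cells.

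Nfkbid itself checks the labels. It was at 114.7 to 309.6 CPM (counts per 1000000, on TMM-scaled library sizes) in transgenic libraries, 28.2 to 37.8 CPM in libraries labelled knockout and 28.9 to 36.9 CPM in controls. The transgene was visible in every transgenic library, while the libraries labelled knockout did not have fewer Nfkbid counts than controls; they are called knockout-labelled here. Library totals were 18546570 to 25836799 estimated counts in transgenic, 21662210 to 35637813 in knockout-labelled and 17955743 to 26586220 in control libraries. Among controls, depth followed sex: the 3 males had 25052921 to 26586220 estimated counts, against 17955743 to 18888169 in the 3 females. The mouse identifiers of all controls begin with the same letters, and those of all transgenic and knockout-labelled mice with other letters. What sets a group apart from controls and what sets these identifier series apart cannot be told apart, whereas transgenic and knockout-labelled mice share a series. The double-positive markers fixed for the check, Cd4, Cd8a and Rag1 among them, summed to 9528 to 10310 CPM in transgenic, 10060 to 11480 CPM in knockout-labelled and 9505 to 12500 CPM in control libraries, where replicate 6 was at 9505 CPM and the other 5 at 11490 to 12500 CPM. No marker of that list was at 0.

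NF-kB transcription factors are held in the cytoplasm by IkB proteins. In the canonical route, the kinase IKKβ (Ikbkb), with its partner IKKα (Chuk) and the regulatory subunit NEMO (Ikbkg), phosphorylates IkB and marks it for destruction. In the alternative route the kinase NIK (Map3k14) activates IKKα, and resting cells keep NIK scarce because TRAF3 and TRAF2 hold it to the ubiquitin ligases cIAP1 (Birc2) and cIAP2 (Birc3), which have it degraded. The ubiquitin-editing enzyme A20 (Tnfaip3) and the deubiquitinase CYLD take down the ubiquitin chains on which the IKK complex is assembled. In double-positive thymocytes these enzymes act downstream of the T cell receptor and of TNF family receptors, at the stage when cells with self-reactive receptors can be deleted. Tnfaip3, Birc3 and the IkB gene Nfkbia are themselves well known NF-kB target genes.

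Of the 10 genes, 9 had an entry in the RefSeq promoter table (GRCm38.p6; 250 bases before to 50 bases after a transcription start), with 14 windows in all. Ikbkb was not among them. The kappa-B motif, the DNA word bound by NF-kB dimers, was searched by its consensus on both strands. It was found in 3 of the 14 windows, against 1480 of all 32851 windows (4.51%), and the 3 are shown because they show where the letters lie near the starts of Tnfaip3, Traf3 and Cyld. Capitals mark the matches. The first letters of the 2 matches of Tnfaip3 lie at -125 and -12 from the RefSeq start (chr10:19015361-19015660, minus strand), that of Traf3 at -10 (chr12:111166120-111166419, plus strand) and that of Cyld at -155 (chr8:88696778-88697077, plus strand). The Tnfaip3 gene span given below runs to 19015657, near the upstream end of this window. By that span both Tnfaip3 matches lie inside the gene. The windows of Chuk, Ikbkg, Map3k14, Traf2, Birc2 and Birc3 did not hold these letters. A match is a description of the sequence and says nothing of binding.
Tnfaip3: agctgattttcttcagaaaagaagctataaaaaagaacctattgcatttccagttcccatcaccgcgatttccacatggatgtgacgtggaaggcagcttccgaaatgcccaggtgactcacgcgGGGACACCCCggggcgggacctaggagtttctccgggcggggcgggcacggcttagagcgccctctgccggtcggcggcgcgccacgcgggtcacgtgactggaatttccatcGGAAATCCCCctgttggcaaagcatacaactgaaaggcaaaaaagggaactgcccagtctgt
Traf3: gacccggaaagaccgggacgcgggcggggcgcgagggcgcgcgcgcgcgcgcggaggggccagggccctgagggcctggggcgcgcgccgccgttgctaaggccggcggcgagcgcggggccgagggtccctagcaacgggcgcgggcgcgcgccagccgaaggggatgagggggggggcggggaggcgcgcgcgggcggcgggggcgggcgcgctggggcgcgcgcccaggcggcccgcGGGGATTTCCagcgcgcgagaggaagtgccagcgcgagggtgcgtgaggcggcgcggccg
Cyld: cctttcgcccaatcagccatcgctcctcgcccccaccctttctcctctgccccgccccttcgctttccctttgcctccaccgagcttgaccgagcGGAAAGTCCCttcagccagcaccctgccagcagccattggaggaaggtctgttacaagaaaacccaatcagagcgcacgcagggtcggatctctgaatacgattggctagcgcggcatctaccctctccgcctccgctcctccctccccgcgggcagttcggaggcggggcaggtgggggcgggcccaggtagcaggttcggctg

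Levels per length were taken from the deposited TPM (transcripts per 1000000), the unit in which different genes can be set side by side. Over the 16 libraries the order was Ikbkb (mean 84.8 TPM), Chuk (75.5), Birc3 (58.2), Tnfaip3 (53.0), Birc2 (48.9), Traf2 (39.7), Ikbkg (31.9), Cyld (25.6), Traf3 (19.55) and Map3k14 (15.5). All 10 were thus well detected, with Ikbkb at percentile 86.02 and Map3k14 at percentile 50.02 of the tested genes. Over all 16 libraries the range of each gene overlapped that of its next neighbour, but within a library some steps were kept throughout. Birc2 stood above Traf2, Cyld above Traf3 and Traf3 above Map3k14 in 16 of 16 libraries. Ikbkb stood above Chuk in 13 of 16, and Tnfaip3 above Birc2 in 10 of 16.

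**Figure D1:**
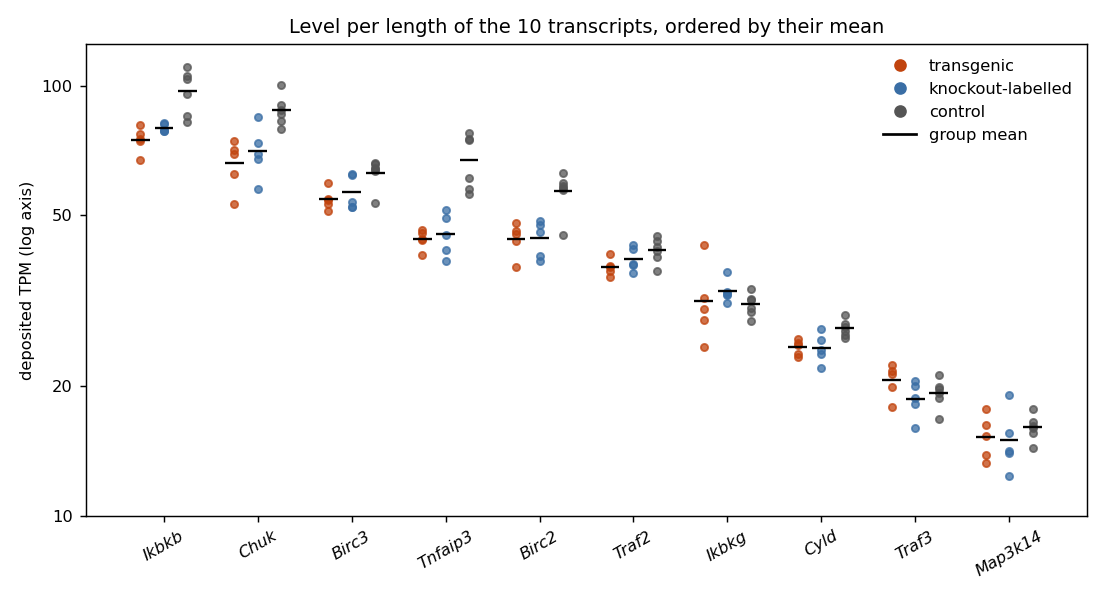
Deposited TPM (log axis) of the 10 transcripts in each library, ordered by the mean over 16 libraries. For each gene the transgenic (n = 5), knockout-labelled (n = 5) and control (n = 6) libraries run left to right, points are libraries and black lines are group means; Ikbkb and Chuk stand highest and Map3k14 lowest in each group, and Tnfaip3 lies between 40.5 and 46.1 TPM in transgenic but between 55.9 and 77.7 TPM in control libraries.

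By deposited TPM the order differed between groups in the middle, where Tnfaip3, Birc3 and Birc2 lie. In transgenic libraries Birc3 averaged 54.4 ± 3.1 TPM, Birc2 44.1 ± 3.8 and Tnfaip3 43.9 ± 2.2 (SD, n = 5). Knockout-labelled libraries had 56.5 ± 5.2 TPM of Birc3, 44.2 ± 4.2 of Birc2 and 45.2 ± 5.1 of Tnfaip3 (SD, n = 5), and controls 62.75 ± 4.8, 56.8 ± 6.1 and 67.0 ± 9.9 TPM of the same genes (SD, n = 6). Birc3 did not overlap the next gene in transgenic or knockout-labelled libraries, whereas in controls Tnfaip3 and Birc3 overlapped and each was the higher in 3 of 6 libraries. Other neighbours whose ranges did not overlap were Cyld and Traf3 in every group, Traf3 and Map3k14 in transgenic, Ikbkg and Cyld in knockout-labelled, and Chuk and Tnfaip3, Birc2 and Traf2, and Traf2 and Ikbkg in control libraries. These orders depend on the transcript lengths behind the TPM values. With counts divided by the longest annotated transcript, 38 of the 45 gene pairs kept their order. By that measure Birc2 ranked 2, Tnfaip3 4 and Birc3 5 in every group, so their order did not differ between groups. Cyld ranked 6 and Ikbkg 9 in every group, the reverse of their order by TPM.

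Ratios of partner genes within a library, which do not depend on scaling between libraries, were also described. Tnfaip3 TPM was 1.57 to 1.93 times Cyld TPM in transgenic, 1.53 to 2.06 times in knockout-labelled and 1.97 to 2.99 times in control libraries. The transgenic range lay below the control range, and the knockout-labelled range overlapped it. The log2 ratio of Traf3 to Traf2 averaged -0.88 ± 0.11 in transgenic, -1.08 ± 0.16 in knockout-labelled and -1.10 ± 0.18 in control libraries, that of Birc3 to Birc2 0.31 ± 0.15, 0.35 ± 0.20 and 0.15 ± 0.07, and that of Ikbkb to Chuk 0.19 ± 0.18, 0.19 ± 0.22 and 0.14 ± 0.16 (SD, n = 5, 5 and 6). In these 3 ratios the groups overlapped.

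Between groups, 4 of the 10 transcripts were lower in transgenic and in knockout-labelled libraries than in controls: both IKK kinase subunits Chuk and Ikbkb, the ubiquitin ligase Birc2 and the A20 gene Tnfaip3. The other 6 were called in neither comparison, and 0 were called higher. The unadjusted p was under 0.05 for 5 of the 10 in each comparison, the fifth being Traf3 in transgenic and Birc3 in knockout-labelled libraries; over all tested genes it was under 0.05 for 7098 of 14933 (47.5%) and 5737 (38.4%). Tnfaip3 changed most, by 0.47 on the log2 scale in transgenic and 0.39 in knockout-labelled libraries. These counts have to be read against a background in which a large share of all genes differed from controls: edgeR's quasi-likelihood test with Benjamini-Hochberg adjustment (threshold 0.05) called 38.6% of 14933 genes in transgenic against control libraries (3438 higher and 2327 lower) and 26.4% in knockout-labelled against control libraries (2449 higher and 1493 lower). The split depends on the scaling: with RLE size factors it was 2935 higher and 2807 lower in transgenic and 2169 higher and 1817 lower in knockout-labelled libraries, and corrected for GC content and length 2457 higher and 3255 lower, and 1985 higher and 2035 lower. The median log2 fold change of the 10 genes was -0.06 against 0.03 over all tested genes in the first comparison, and -0.12 against 0.02 in the second. Both comparisons share the control libraries. In bulk RNA, a smaller share of cells that hold a transcript and less of it per cell cannot be told apart.

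**Figure D2:**
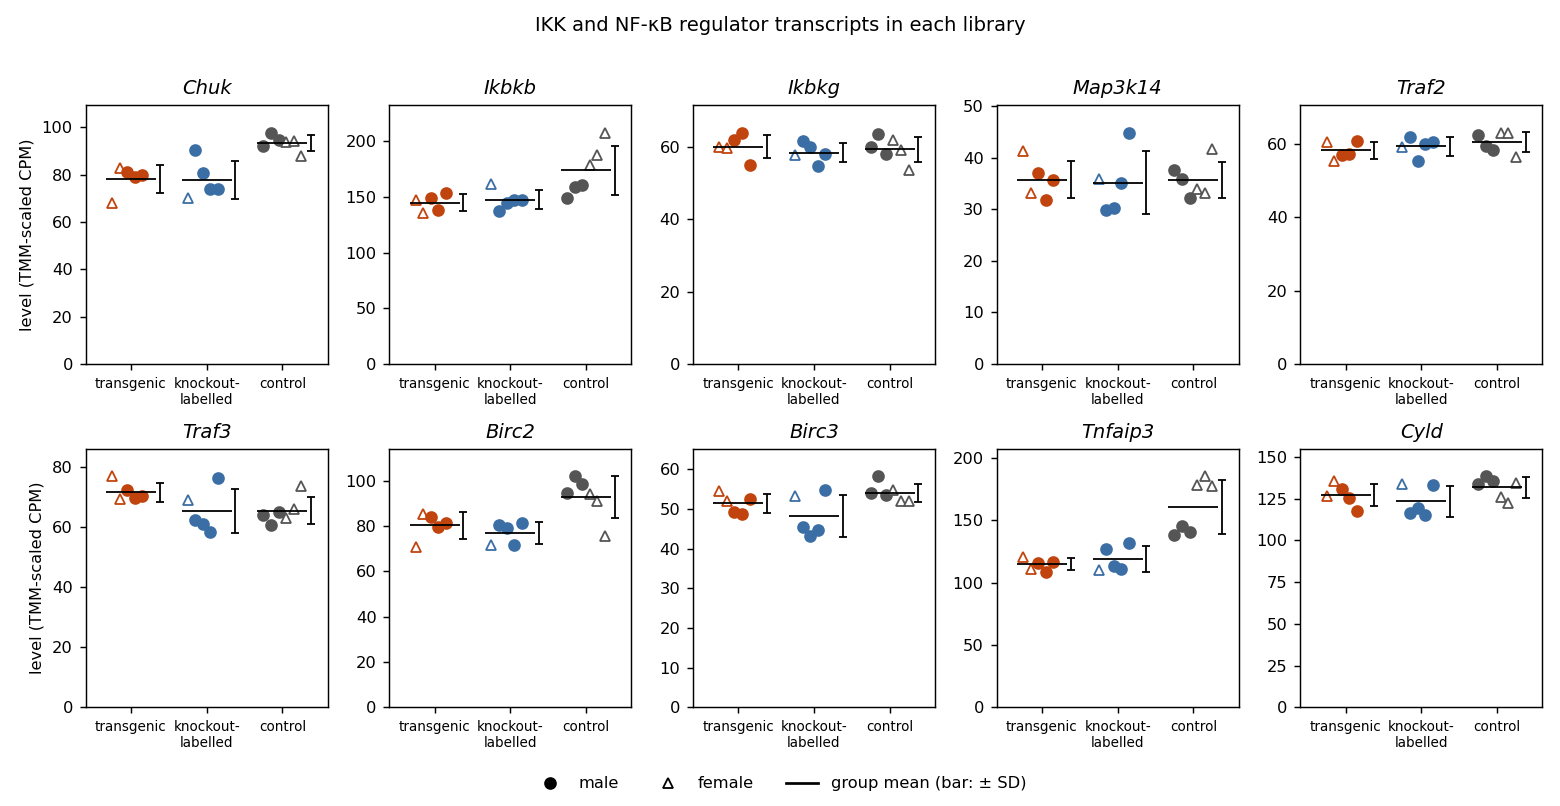
Level of each transcript in each library (TMM-scaled CPM, axis from 0), with transgenic, knockout-labelled and control libraries left to right. Filled circles are males, open triangles females, lines group means and bars ± SD (n = 5, 5 and 6); for Tnfaip3 no library of the first 2 groups reaches the lowest control at 138.4 CPM, and the 3 control females stand at 178 to 185 CPM, above the 3 control males.

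Chuk (ENSMUSG00000025199; GRCm38 chromosome 19, 44073335 to 44107480, minus strand) encodes IKKα, the kinase that both routes use. Its level was 68.15, 82.9, 80.95, 79.0 and 79.7 CPM in transgenic replicates 1 to 5 and 69.96, 90.5, 80.8, 73.9 and 73.95 CPM in knockout-labelled replicates 1 to 5, with a lowest, median and highest of 87.8, 94.0 and 97.6 CPM in controls. All transgenic libraries lay below all controls, and 21.6% of all tested genes parted these groups in either direction. Knockout-labelled replicate 2 lay within the control range. Chuk fell by 16.8% in transgenic against control libraries (log2 fold change -0.26, SE 0.06, edgeR adjusted p = 0.00244). It fell by 18.2% in knockout-labelled libraries (-0.29, SE 0.06, adjusted p = 0.00299).

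Ikbkb (ENSMUSG00000031537; chromosome 8, 22659212 to 22706589, minus strand) encodes IKKβ, the main kinase of IkB in the canonical route. Transgenic replicates 1 to 5 had 147, 135, 149, 138 and 154 CPM and knockout-labelled replicates 1 to 5 had 161, 138, 145, 147 and 147 CPM, against a lowest, median and highest of 149, 169.6 and 207 CPM in controls. The groups overlapped, because control males stood at 149 to 160.2 CPM and control females at 179 to 207 CPM. The log2 fold change was -0.24 (SE 0.06, edgeR adjusted p = 0.00645) in transgenic and -0.19 (SE 0.06, adjusted p = 0.0403) in knockout-labelled libraries. In males alone the values were -0.11 (adjusted p = 0.16) and -0.12 (adjusted p = 0.12), so neither call held there. The knockout-labelled call was also lost without transgenic replicate 1 (adjusted p = 0.0541), knockout-labelled replicate 1 (0.0827) or control replicate 3 (0.0556) or 4 (0.052), all libraries of the shared fit.

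Ikbkg encodes NEMO, the subunit that binds ubiquitin chains. It had 55.15 to 63.9 CPM in transgenic, 54.9 to 61.6 CPM in knockout-labelled and 53.6 to 63.7 CPM in control libraries, with overlapping groups. Its log2 fold changes were 0.01 (SE 0.05, edgeR adjusted p = 0.843) and -0.03 (SE 0.05, adjusted p = 0.675), and the first turned to -0.02 with RLE size factors. The 3 subunits of 1 complex thus did not share a call: both kinases were called lower and NEMO was not, although a difference between the subunits was not tested. Ikbkg lies on the X chromosome (GRCm38 chromosome X, 74393290 to 74453854, plus strand) and overlaps G6pdx on the opposite strand. The libraries were stranded, but no source used here says whether strand was used in counting, so reads of both genes could be mixed.

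Map3k14 (chromosome 11, 103219762 to 103267472, minus strand), Traf3 (chromosome 12, 111166370 to 111267153, plus strand) and Traf2 (chromosome 2, 25517982 to 25546940, minus strand) encode the NIK kinase and the adaptors that hold it. Map3k14 was the most variable of the 10 relative to its mean in knockout-labelled libraries, where its coefficient of variation was 17.2%, with 31.8 to 41.3 CPM in transgenic, 29.8 to 44.8 CPM in knockout-labelled and 32.1 to 41.7 CPM in control libraries. Its log2 fold changes were 0.01 (SE 0.10, edgeR adjusted p = 0.961) and 0.00 (SE 0.10, adjusted p = 0.985), the first with a sign that turned with RLE size factors (-0.03). Traf2 was at 58.3 ± 2.4 CPM in transgenic, 59.4 ± 2.5 CPM in knockout-labelled and 60.5 ± 2.8 CPM in control libraries (SD, n = 5, 5 and 6) and was not called (edgeR adjusted p = 0.372 and 0.72). Corrected for GC content and length, however, its transgenic value was -0.14 with an adjusted p of 0.0186.

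Traf3 was the gene nearest to a call in the upward direction. It had 76.7, 69.2, 72.2, 69.4 and 70.1 CPM in transgenic replicates 1 to 5, 68.9, 62.2, 60.85, 58.3 and 76.1 CPM in knockout-labelled replicates 1 to 5, and a lowest, median and highest of 60.6, 64.4 and 73.7 CPM in controls. Only control replicate 6 and knockout-labelled replicate 5 exceeded the lowest transgenic library. The log2 fold change was 0.14 (SE 0.06, edgeR adjusted p = 0.0902) in transgenic libraries and 0.02 (SE 0.06, adjusted p = 0.826) in knockout-labelled libraries, the last with a sign that turned with RLE size factors.

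Birc2 (ENSMUSG00000057367) and Birc3 encode the ligases cIAP1 and cIAP2 and lie side by side on chromosome 9 (GRCm38, 7818227 to 7837064 and 7848699 to 7873186, both on the minus strand). Birc2 was at 70.5, 85.5, 84.2, 79.6 and 81.5 CPM in transgenic replicates 1 to 5 and at 71.4, 80.5, 79.2, 71.6 and 81.5 CPM in knockout-labelled replicates 1 to 5. Controls had a lowest, median and highest of 75.4, 94.4 and 101.9 CPM. Control replicate 6, a female, lay inside the range of the other groups, and the other 5 controls lay above it. The log2 fold change was -0.22 (SE 0.06, edgeR adjusted p = 0.0116) in transgenic and -0.31 (SE 0.06, adjusted p = 0.00271) in knockout-labelled libraries.

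Birc3 had 51.4 ± 2.4 CPM in transgenic, 48.2 ± 5.3 CPM in knockout-labelled and 54.0 ± 2.3 CPM in control libraries (SD, n = 5, 5 and 6), and the groups overlapped. It was not called in transgenic libraries (log2 fold change -0.07, SE 0.06, edgeR adjusted p = 0.408) or knockout-labelled libraries (-0.15, SE 0.06, adjusted p = 0.0843). The knockout-labelled value was near the threshold. It passed without transgenic replicate 2 (adjusted p = 0.0495), knockout-labelled replicate 5 (0.00725) or control replicate 6 (0.0356). Without knockout-labelled replicate 5 the log2 fold change was -0.23, against -0.15 with it. It also passed with DESeq2 (0.0371), RLE size factors (0.0476), the 1 CPM filter (0.0363) and the GC content and length correction (0.0381). Knockout-labelled replicate 5 was the highest of its group at 54.8 CPM, with the other 4 at 43.1 to 53.2 CPM. That library also held the highest Tnfaip3, Map3k14 and Traf3 of the knockout-labelled group.

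Tnfaip3 (ENSMUSG00000019850; chromosome 10, 19000910 to 19015657, minus strand), the A20 gene, had 120.9, 111.4, 116, 109 and 117 CPM in transgenic replicates 1 to 5 and 110.5, 127, 114, 111 and 132 CPM in knockout-labelled replicates 1 to 5. The lowest, median and highest control had 138.4, 161.5 and 185.3 CPM. Every transgenic and every knockout-labelled library lay below every control, as was the case for 21.6% of all tested genes, in either direction, in transgenic against control libraries and for 14.1% in knockout-labelled against control libraries. Tnfaip3 fell by 27.65% in transgenic libraries (log2 fold change -0.47, SE 0.07, edgeR adjusted p = 1.84e-04). It fell by 23.5% in knockout-labelled libraries (-0.39, SE 0.08, adjusted p = 0.00199). It was the only one of the 10 whose transgenic call held when tested against a fold of 1.2.

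Cyld (chromosome 8, 88697028 to 88751945, plus strand) encodes the deubiquitinase that, like A20, restrains IKK. It was at 127 ± 6.7 CPM in transgenic, 123 ± 9.3 CPM in knockout-labelled and 132 ± 6.2 CPM in control libraries (SD, n = 5, 5 and 6), with overlapping groups. The log2 fold changes were -0.05 (SE 0.05, edgeR adjusted p = 0.509) and -0.09 (SE 0.06, adjusted p = 0.25). Of the 3 genes with the kappa-B letters near their start, Tnfaip3 was thus called lower and Traf3 and Cyld were not called.

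**Figure D3:**
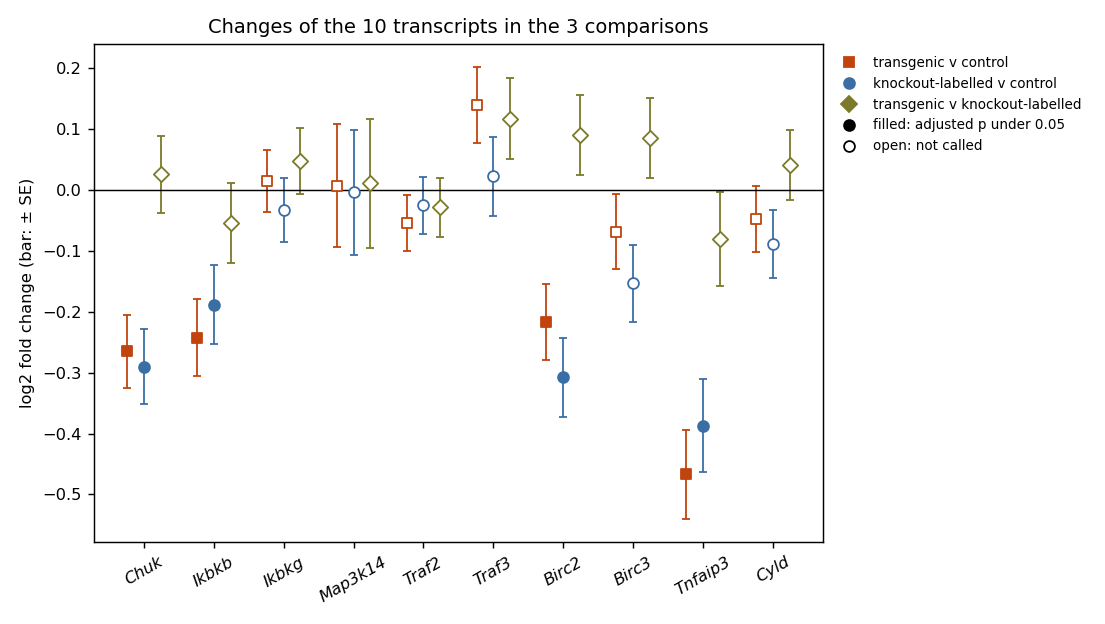
Log2 fold change (± SE) of the 10 transcripts in transgenic v control (squares), knockout-labelled v control (circles) and transgenic v knockout-labelled (diamonds) libraries. Filled symbols have an edgeR adjusted p under 0.05; Chuk, Ikbkb, Birc2 and Tnfaip3 are filled in both comparisons with controls, and all diamonds are open and within 0.12 of 0.

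Several other groups of transcripts moved with these calls, and their part in the calls was not tested. The 23 immediate-early and handling-stress genes summed to 1294 to 1478 CPM in transgenic, 1261 to 1563 CPM in knockout-labelled and 1602 to 2123 CPM in control libraries, so both the transgenic and the knockout-labelled libraries stood below every control, as they did for Tnfaip3. Within the controls this sum did not follow sex (1705 to 1916 CPM in males, 1602 to 2123 CPM in females). Single genes of the list did part the control sexes, as did 24.8% of all tested genes. Hspa1b was at 67.5 to 119 CPM in control males and 0.717 to 13.1 CPM in control females. Junb went the other way, at 75.6 to 88.05 CPM in control males and 91.7 to 190.9 CPM in control females. Markers of mature single-positive thymocytes summed to 1028 to 1428 CPM in transgenic, 726 to 901 CPM in knockout-labelled and 623 to 962 CPM in control libraries. Double-positive markers had a median sum of 10010 CPM in transgenic, 10850 CPM in knockout-labelled and 12300 CPM in control libraries; 8 of the 13 fell and 1, Ptcra, rose in transgenic libraries, and 3 fell and 1, Ptcra, rose in knockout-labelled libraries. Control replicate 1 and knockout-labelled replicates 1 to 3, whose MHC class II transcripts were high, were left out of a further edgeR fit, with 12 libraries left. The knockout-labelled group was then replicates 4 and 5 alone, both males, and the genes called against controls fell from 3942 to 1438. The knockout-labelled log2 fold changes were -0.21 for Ikbkb (adjusted p = 0.191), -0.33 for Tnfaip3 (adjusted p = 0.0588) and -0.35 for Birc2 (adjusted p = 0.0603). Chuk alone was still called (-0.38, adjusted p = 0.0172). Whether the smaller group or the class II transcripts lost the other calls was not tested. All 5 transgenic libraries, which were kept in that fit, were also high in class II transcripts: Cd74, a class II chaperone gene, was at 19.1 to 38.8 CPM in them, at 26.5 to 30.65 CPM in knockout-labelled replicates 1 to 3 and at 9.30 CPM in control replicate 1. Without control replicate 2 and transgenic replicates 3 and 5, whose interferon-response transcripts were high, the calls of Birc2 in transgenic (log2 fold change -0.23 against -0.22 with all libraries, adjusted p = 0.0505) and of Ikbkb in knockout-labelled libraries (-0.20 against -0.19, adjusted p = 0.0513) were lost, with 13 libraries left and no smaller fold changes.

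Within the shared identifier series, transgenic and knockout-labelled libraries were not distinguished by any of the 10 genes. EdgeR called 0 of the 10, DESeq2 and limma-voom called 0, and 0 had an unadjusted p under 0.05, in a comparison in which 1.17% of all tested genes were called and 1408 of 14933 (9.43%) had an unadjusted p under 0.05. Nfkbid differed between the same libraries by 2.61 on the log2 scale (SE 0.16, edgeR adjusted p = 1.76e-06). The largest of the 10 log2 fold changes was that of Traf3, at 0.12 (SE 0.07, edgeR adjusted p = 0.659; 95% interval -0.02 to 0.26). The 95% interval ran from -0.11 to 0.16 for Chuk, from -0.19 to 0.09 for Ikbkb, from -0.05 to 0.23 for Birc2 and from -0.24 to 0.08 for Tnfaip3. The widest, that of Map3k14, ran from -0.21 to 0.23. Differences inside these intervals remain compatible with the data at this depth and number of mice.

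Sex was examined as a term of the same fit and as a modifier of the transgenic effect. No transcript of the 10 was called between males and females with edgeR, DESeq2 or limma-voom, where edgeR called 0.141% of all tested genes. The unadjusted p was under 0.05 for 2 of them, Ikbkb (log2 fold change -0.14 male over female, SE 0.06, edgeR adjusted p = 0.372) and Birc2 (0.13, adjusted p = 0.429). X-linked Ikbkg had a log2 fold change of 0.03 (SE 0.04, edgeR adjusted p = 0.835). In controls, Tnfaip3, Ikbkb and Birc2 parted the sexes without overlap, as did 24.8% of all 14933 tested genes in either direction. Tnfaip3 and Ikbkb were lower in control males, and Birc2 was higher, at 94.5 to 101.9 CPM in control males and 75.4 to 94.25 CPM in control females. Tnfaip3 had 138.4 to 145.3 CPM in control males and 178 to 185.3 CPM in control females, while transgenic males had 109 to 117 CPM and transgenic females 111.4 and 120.9 CPM. Control females were also the shallower libraries, so sex and depth cannot be told apart there.

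Tested directly, the transgenic log2 fold change in males minus that in females was 0.34 for Tnfaip3 (SE 0.08, edgeR adjusted p = 0.171) and 0.37 for Ikbkb (SE 0.10, adjusted p = 0.205). Both values mean a smaller distance from controls in males. Neither was called, in a fit in which 0.0278% of 14385 genes were called; these 2 were the only ones of the 10 with an unadjusted p under 0.05, and limma-voom called 0. Tnfaip3 passed with DESeq2 (adjusted p = 0.0171) and without transgenic replicate 1 (adjusted p = 0.0464). In males alone the call of Tnfaip3 against controls held, at -0.34 in transgenic (adjusted p = 0.00679) and -0.23 in knockout-labelled libraries (adjusted p = 0.0278).

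The genes with the most similar pattern over the 16 libraries were found by the root mean square difference of z-scored log2 CPM, where 0 is an identical pattern and the median over 12647 genes was 1.40 to 1.49 depending on the gene. For Tnfaip3 the nearest were Pi4kb (0.285), which encodes a phosphoinositide kinase, and Egfl8 (0.29). Chuk was nearest to Zfp983 (0.325) and Phf20l1 (0.349), Ikbkb to Ssh3 (0.298), a cofilin phosphatase, and Cramp1l (0.303), and Birc2 to Relch (0.289) and Kansl1l (0.388). As these neighbours were picked by likeness over the same libraries, they share by construction the outline of lower means in transgenic and knockout-labelled libraries. Egfl8, for example, was at 10.3 CPM in transgenic, 10.1 CPM in knockout-labelled and 17.2 CPM in control libraries. The 4 called genes were also each other's nearest among the 10, Chuk with Birc2 (0.541) and Ikbkb with Tnfaip3 (0.561).

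The genes that were not called had neighbours farther off. Map3k14 was nearest to Laptm5 (0.399), a lysosomal protein gene of blood cells, and Pld3 (0.403). Traf3 was nearest to Gm11346 (0.424) and Saraf (0.455), Cyld to Stk17b (0.421) and Rab8b (0.488), Traf2 to Art5 (0.49) and Clstn1 (0.638), and Birc3 to Crlf3 (0.529) and Fam234b (0.551). Ikbkg was nearest to Aktip and H2-Q3 (both 0.624). Among the 10, Map3k14 and Traf3 were each other's nearest (0.815), as were Cyld and Birc3 (0.747).

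Around these 10 genes, 8 lists of other pathway genes and 1 of immediate-early genes were counted, and their shares called stand beside 38.6% of all tested genes in transgenic and 26.4% in knockout-labelled libraries. In transgenic libraries the share ran from 15.4% (kinases beside IKK with their binding partners) to 52.4% (immediate-early genes). In knockout-labelled libraries it ran from 0% (TNF ligands) to 52.4% (immediate-early genes). Of 13 genes of TAK1, IKK-related kinases and their binding partners, 1 rose and 1 fell in transgenic libraries. In knockout-labelled libraries 1 rose and 2 fell. Tab1, a TAK1-binding subunit, rose by 0.23 on the log2 scale (SE 0.09, edgeR adjusted p = 0.0432) and 0.29 (SE 0.09, adjusted p = 0.0248), and Azi2, an adaptor of the kinase TBK1, fell by 0.14 (SE 0.05, adjusted p = 0.0191) and 0.21 (SE 0.05, adjusted p = 0.00431). Tank also fell in knockout-labelled libraries. The called genes of this list were all binding partners, and no kinase in it was called. The list medians were 0.00 and -0.07.

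Over all tested genes, 23.0% were called higher and 15.6% lower in transgenic libraries, a split that depends on the scaling. Genes that build ubiquitin chains were called there at close to the share of all tested genes (38.6%), with more lower than higher. Of 16 such genes 5 fell (Traf6, Xiap, Peli1, Itch and Rnf11) and 1 rose, with a list median of 0.02, and in knockout-labelled libraries 3 fell (Ube2d3, Xiap and Itch) and 1 rose, with a median of -0.09. Otulin was the gene that rose in both (by 0.28 on the log2 scale, SE 0.07, edgeR adjusted p = 0.00545, and by 0.26, SE 0.07, adjusted p = 0.0156), and it encodes a deubiquitinase of linear chains rather than a builder. Xiap, a relative of Birc2 and Birc3, had a log2 fold change of -0.23 in transgenic (SE 0.07, adjusted p = 0.0214) and -0.27 in knockout-labelled libraries (SE 0.08, adjusted p = 0.0161). The ligase Itch fell by 0.18 (SE 0.05, adjusted p = 0.0147) and 0.16 (SE 0.06, adjusted p = 0.0436) on the log2 scale.

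Of 12 tested genes listed as ubiquitin-binding and deubiquitinating brakes, 2 rose (Usp10 and Nlrc5) and 3 fell in transgenic libraries (median 0.04). In knockout-labelled libraries 1 rose and 1 fell (median -0.06). The list also held Nlrc5, Nlrc3 and Nlrx1, which encode neither kind of protein. The deubiquitinase gene Otud5 fell in both, by 0.21 on the log2 scale (SE 0.05, edgeR adjusted p = 0.00335) and 0.20 (SE 0.05, adjusted p = 0.0088), and Usp10 rose in both. Otud7b and Zranb1 also fell in transgenic libraries. Nlrc5, known for switching on MHC class I genes and reported to restrain IKK, was at 95.3, 92.1, 143, 90.5 and 138.5 CPM in transgenic replicates 1 to 5, at 11.7 to 18.7 CPM in knockout-labelled and at 8.54 to 44.0 CPM in control libraries. The transgenic libraries stood above all others, and its log2 fold change was 2.62 against controls (SE 0.34, edgeR adjusted p = 1.33e-04) and 3.06 against knockout-labelled libraries (SE 0.37, adjusted p = 8.52e-04). The highest control was replicate 2, at 44.0 CPM, and the highest transgenic libraries were replicates 3 and 5, the 3 libraries with high interferon-response transcripts.

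In the route from the antigen receptor to IKK, 2 of 12 genes rose and 3 fell in transgenic libraries (median -0.02), and 1 rose and 3 fell in knockout-labelled libraries (median -0.09). Carmil2, a scaffold of CD28 signalling, was at 203 to 267 CPM in transgenic, 235 to 264.5 CPM in knockout-labelled and 283 to 392 CPM in control libraries. It fell by 0.48 on the log2 scale (SE 0.08, edgeR adjusted p = 2.76e-04) and 0.39 (SE 0.08, adjusted p = 0.00317). Pdpk1 and Cflar also fell in both groups. Fadd, the death-receptor adaptor, rose by 0.47 on the log2 scale (SE 0.07, adjusted p = 1.69e-04) and 0.50 (SE 0.08, adjusted p = 4.86e-04), and Casp8 rose in transgenic libraries. Of 8 genes that tag IkB for the proteasome, 2 rose in each group and 0 fell (medians 0.03 and 0.03). They were Nedd8, the ubiquitin-like protein that activates cullin ligases, at a log2 fold change of 0.31 (SE 0.07, adjusted p = 0.00322) and 0.31 (SE 0.07, adjusted p = 0.00615), and the ligase subunit Rbx1.

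Of 11 NF-kB subunit and IkB genes, 3 rose in transgenic libraries (Nfkbib, Nfkbid and Bcl3) and 2 fell (Rel and Nfkbia; median 0.09), and in knockout-labelled libraries Nfkbib rose and Rel, Nfkbia and Bcl3 fell (median 0.05). Nfkbia, like Tnfaip3 a classical NF-kB target, had a log2 fold change of -0.30 in transgenic (SE 0.06, edgeR adjusted p = 7.28e-04) and -0.21 in knockout-labelled libraries (SE 0.06, adjusted p = 0.0167). The other IkB gene Nfkbib rose by 0.34 on the log2 scale (SE 0.06, adjusted p = 3.38e-04) and 0.23 (SE 0.06, adjusted p = 0.0103). Bcl3, a nuclear IkB protein like that of Nfkbid, was at 2.87 to 12 CPM in transgenic, 0.298 to 1.42 CPM in knockout-labelled and 1.07 to 2.26 CPM in control libraries. It was the 1 gene of this list besides Nfkbid that parted transgenic from knockout-labelled libraries (log2 fold change 3.29, SE 0.42, edgeR adjusted p = 4.83e-04).

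Some members of the TNF receptor family recruit TRAF2, TRAF3 and the cIAP ligases. Of 14 tested genes of this family, 5 rose and 1 fell in transgenic libraries (median 0.25), and 2 rose and 1 fell in knockout-labelled libraries (median 0.01). Tnfrsf1b, which encodes TNF receptor 2, was at 22.8 to 26.05 CPM in transgenic and 16.6 to 20.2 CPM in knockout-labelled libraries. It rose against controls by 0.69 on the log2 scale (SE 0.06, edgeR adjusted p = 4.14e-06) in transgenic and 0.32 (SE 0.07, adjusted p = 0.0026) in knockout-labelled libraries, and the 2 groups differed by 0.38 (SE 0.07, adjusted p = 0.00618). Tnfrsf18 rose by 0.30 on the log2 scale (SE 0.07, adjusted p = 0.00206) in transgenic libraries. Tnfrsf13c, Tnfrsf9 and Tnfrsf14 also rose there, and Fas fell in both groups. Tnfrsf13c was near the floor, at 0.26 to 0.80 CPM in transgenic and 0.11 to 0.44 CPM in control libraries. Tnfrsf9 was low too, at 1.17 to 2.20 CPM and 0.88 to 1.26 CPM. Of 9 tested TNF ligands, 3 rose in transgenic libraries (Ltb, Tnfsf8 and Tnfsf10) and 1 fell (Tnfsf9, list median 0.34). In knockout-labelled libraries (median 0.02) the nearest to a call was Tnfsf11, with a log2 fold change of 0.98 (SE 0.43, adjusted p = 0.105). Tnfsf8 was near the floor, at 0.35 to 1.37 CPM in transgenic and 0.15 to 0.50 CPM in control libraries. Tnfsf11 was low as well, at 0.55 to 1.99 CPM in knockout-labelled and 0.22 to 1.03 CPM in control libraries. Tnfsf10, the gene of the death ligand TRAIL, rose by 0.57 on the log2 scale (SE 0.11, adjusted p = 7.31e-04) against controls and 0.55 (SE 0.11, adjusted p = 0.021) against knockout-labelled libraries. Tnfrsf13c and Ltb are also expressed by B cells and mature T cells, whose markers were higher in transgenic libraries.

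The immediate-early and handling-stress list had 21 tested genes, of which 10 fell and 1, Socs3, rose in transgenic libraries (median -0.30), and 11 fell in knockout-labelled libraries (median -0.35). Fosb, an AP-1 subunit, fell by 3.22 on the log2 scale (SE 0.36, edgeR adjusted p = 1.57e-05) in transgenic and by 1.97 (SE 0.33, adjusted p = 8.71e-04) in knockout-labelled libraries, and Ppp1r15a, a regulator of the stress response, by 2.21 (SE 0.22, adjusted p = 1.96e-05) and 1.95 (SE 0.23, adjusted p = 2.88e-04). Between transgenic and knockout-labelled libraries, edgeR called 5 genes of the pathway lists, all higher in transgenic libraries: Nfkbid, Bcl3, Nlrc5, Tnfrsf1b and Tnfsf10.

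**Figure D4:**
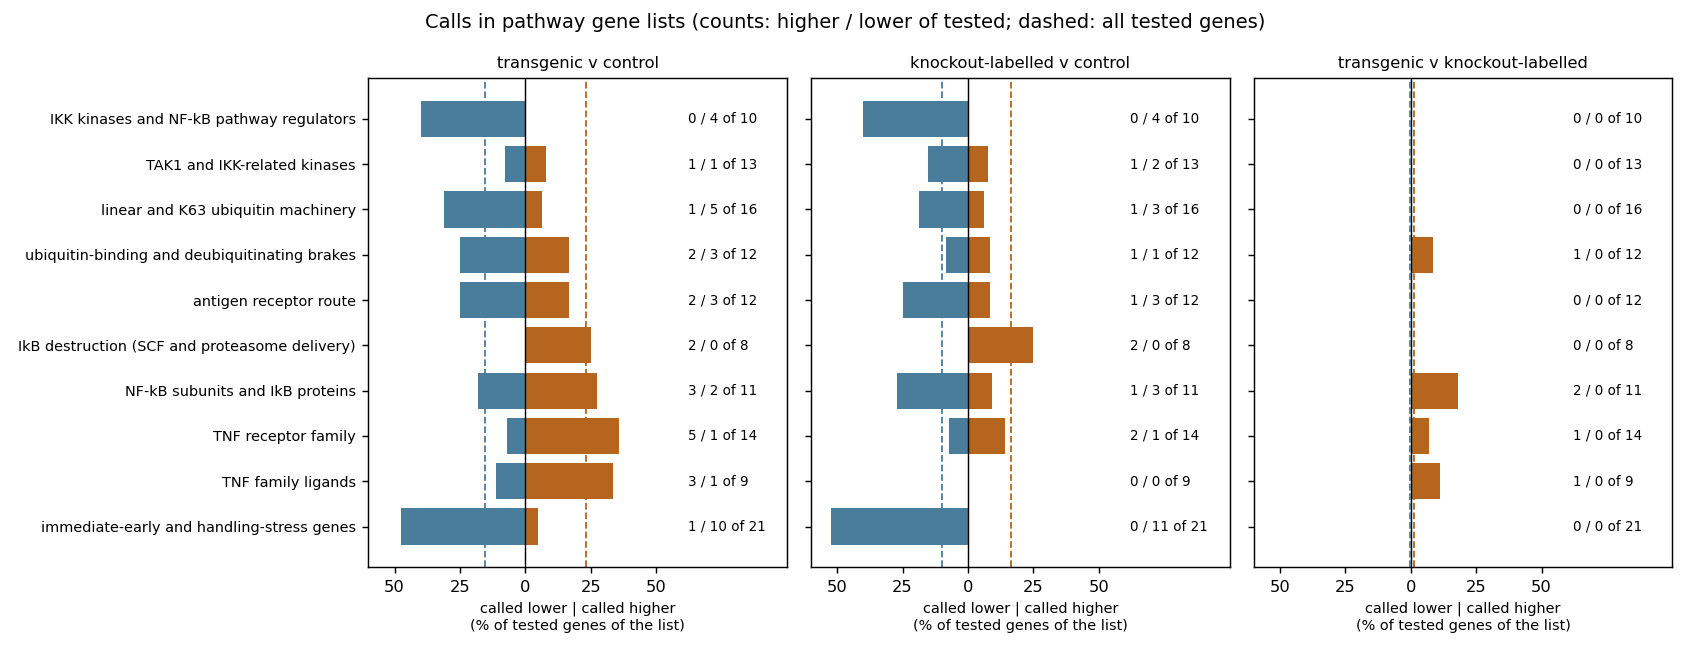
Share of the tested genes of each pathway list called higher (brown, to the right) or lower (blue, to the left) by edgeR in transgenic v control, knockout-labelled v control and transgenic v knockout-labelled libraries, with the counts printed beside the bars. Dashed lines give the same shares over all 14933 tested genes (23.0% higher and 15.6% lower in transgenic v control); the 10 regulators have 4 calls lower and 0 higher in both comparisons with controls.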

How the data were processed

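Libraries were KAPA stranded RNA libraries from TRIzol-extracted RNA with RIN above 9, per the labels' protocols. The authors deposited estimated counts and TPM per gene for each sample, per the file headers. Bowtie 1.0.0, SAMtools 0.1.18, edgeR 3.24.3 and GRCm38 are named in the submitters' processing notes, and no source used here names the program that estimated the counts. Identifiers without a symbol (512, holding 0.171% of counts) stayed out. Of positive estimated counts 58.7% were whole (within 1e-6), and among the 10 genes Map3k14, Traf3 and Tnfaip3 had whole counts in all 16 libraries. Chuk had whole counts in 6 libraries, Ikbkb in 1, and Ikbkg, Traf2, Cyld, Birc2 and Birc3 in 0. Fractional counts can come from reads shared between features, which was not tested here, so the levels of these genes are less certain.

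Rounded counts went into edgeR 4.0.16 (R 4.3.3; filterByExpr, TMM, robust quasi-likelihood fit of group and sex over all 16 libraries, Benjamini-Hochberg adjustment over 14933 genes; 12 residual degrees of freedom). The SE is the size of the log2 fold change divided by the square root of F. The effect by sex was fitted on transgenic and control libraries (7 degrees of freedom). Deposited TPM were described without a test. The common biological coefficient of variation was 0.128. No 2 libraries of a group agreed within sampling noise (chi-square per degree of freedom 4.55 to 79.7). Identifiers show separate mice. Simulated counts tested the transgenic v control contrast alone, with few genes changed and equal numbers up and down. They do not show how the calls fare where 38.6% of genes are called, as here.

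Named genes were the 10, Nfkbid, the 2 genes of smallest p per list and comparison, and the 2 nearest in pattern; other list genes are named as called members, and their values, where given, were chosen after they were seen. The genes and lists were chosen with earlier results of these data known. Alternatives were DESeq2 1.42.0, limma-voom (limma 3.58.1), RLE size factors, library totals, leaving out the filter, a filter at 1 CPM in 5 or more libraries, a non-robust fit, leaving out the sex term, a fit of the compared groups alone, a fit of males alone, a replicate block, a fold of 1.2, each library left out and annotated transcript lengths. Added after seeing the data were both sets of libraries left out and a GC content and length correction (spline, 4 degrees of freedom). Results for some single genes are left out here.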

Additional observations from a re-analysis of the deposited data

Results flagged for a closer look

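One level stood apart within its group. Chuk was at 68.15 CPM in transgenic replicate 1, a female, while the other 4 transgenic libraries had 78.97 to 82.91 CPM; the gap was 0.733 of the range of the group, above the 95% critical value of 0.71 for 5 samples. Without that library Chuk was still lower in transgenic than in control libraries (log2 fold change -0.22, edgeR adjusted p = 0.012). In all, 30 sets of libraries (10 genes in 3 groups) were screened and 1 was picked out, where chance picks about 1 in 20.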

How the results depend on the processing

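Against controls, 4 of the 10 genes were called in transgenic libraries whichever library was left out (4 to 4), and 3 to 5 in knockout-labelled libraries; the count between transgenic and knockout-labelled libraries stayed at 0 and that by sex at 0 to 1. Tested against a fold of 1.2, 1 gene (Tnfaip3) was called in transgenic and 0 in knockout-labelled libraries. Leaving out libraries high in class II transcripts, 1 gene, Chuk, was called in knockout-labelled libraries, of which replicates 4 and 5 alone were left. With DESeq2 1 gene, Tnfaip3, was called in the test by sex. Chuk was called under all settings except the fold of 1.2. Traf3 passed in transgenic libraries with the replicate block (0.168, adjusted p = 0.0302).

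Numbers shared by libraries of different groups did not pair them: same-number residuals had a median correlation of 0.055, with 6 of 15 over 0.1, and 4 of 16 libraries correlated best with their own number. With the number as a replicate block 5, 4 and 0 genes of the 10 were called, and 5891, 4129 and 166 of all genes, against 5765, 3942 and 174 without it. Over all genes, males alone gave 3160 in transgenic against control libraries, the fold of 1.2 gave 1428 and 414, leaving out high class II libraries gave 1438 and high interferon libraries 2289 in knockout-labelled libraries, males and the fold of 1.2 gave 106 and 99 between transgenic and knockout-labelled libraries, and DESeq2 and no filter gave 342 and 278 there. By sex DESeq2 called 145. After the GC content correction 43.0% of transgenic and 49.4% of knockout-labelled calls were higher than in controls, against 59.6% and 62.1%; no scaling moved the median of all genes by over 0.1.

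The genes whose sign changed had values near 0. For Ikbkg in transgenic libraries (0.01) the log2 fold change was -0.0194 with DESeq2, -0.0191 with RLE size factors, -0.0123 with no filter, -0.0212 with the 1 CPM filter, -0.0174 with only those groups, -0.0298 in males and -0.0104 with the block, and -0.0456 to 0.0302 as each library was left out. For Map3k14 the same settings gave -0.0264, -0.0265, -0.0201, -0.0289, -0.0239 and -0.0414 (block unchanged in sign), -0.056 without interferon-high libraries, -0.0489 with the GC correction, and -0.0496 to 0.0141 as each library was left out. In knockout-labelled libraries Map3k14 was 0.00748 with the block, 0.234 without high class II libraries and -0.13 to 0.0192 as each was left out, Traf2 was 0.0176 without high class II libraries, and Traf3 was -0.00135 with DESeq2, -0.00114 with RLE, -0.00205 with the 1 CPM filter, -0.0014 without the sex term, -0.0113 without interferon-high libraries, -0.0231 with the GC correction and -0.068 to 0.0301 as each was left out. Between transgenic and knockout-labelled libraries Chuk was -0.0173 in males, -0.0228 with the GC correction and -0.0163 to 0.0713 as each was left out, Ikbkb was 0.00745 in males, and Map3k14 was -0.00902 with no filter, -0.000656 with the 1 CPM filter, -0.0275 in males, -0.197 and -0.0523 without the class II and interferon libraries and -0.0457 to 0.107 as each was left out. The causes were not tested.

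The order of levels held in 45 of 45 pairs as each library was left out. With annotated transcript lengths the log2 ratios in transgenic, knockout-labelled and control libraries were 0.421, 0.459 and 0.42 for Ikbkb to Chuk, -0.445, -0.482 and -0.578 for Birc3 to Birc2, -0.483, -0.649 and -0.67 for Traf3 to Traf2, and 0.224, 0.319 and 0.652 for Tnfaip3 to Cyld, so the direction of Birc3 to Birc2 rests on the lengths used. By ranks in place of z-scores, 19 of 20 nearest genes were among the nearest 20. The exception was Ssh3, the gene nearest to Ikbkb by z-scores, which stood at rank 121. With 5 or 6 mice a group, differences inside the intervals given remain compatible with the data.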

Other observations

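Markers of other cells in the sort were counted by fixed lists. B cell markers summed to 102.2 to 179.1 CPM in transgenic, 8.86 to 77.8 CPM in knockout-labelled and 8.76 to 28.5 CPM in control libraries; against controls 11 of 12 were called higher in transgenic libraries, and 3 higher (Cd74, H2-Aa and H2-Ab1) and 2 lower in knockout-labelled libraries. Mature single-positive markers had 7 of 9 higher in transgenic libraries, Ccr7 and S1pr1 among them, and 1 of 9, Il7r, in knockout-labelled libraries. Macrophage markers summed to 21.2 to 29.3 CPM in transgenic, 12.2 to 20.6 CPM in knockout-labelled and 12.97 to 20.1 CPM in control libraries, with 6 of 8 higher in transgenic libraries. Dendritic cell markers had 4 of 6 and NK and innate lymphoid markers 3 of 5 higher in transgenic libraries, and 0 and 2 in knockout-labelled libraries.

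Of 13 double-positive thymocyte markers, 8 were lower in transgenic and 3 in knockout-labelled libraries, and Ptcra was higher in both. Thymic epithelium (0 of 2), erythroid (0 of 5) and stroma and endothelium (0 of 3) lists had no edgeR call in the 3 comparisons (the unadjusted p was under 0.05 for 1 epithelial and 1 stromal gene, both in transgenic against control libraries), and granulocyte markers, at no more than 0.498 CPM in sum, were too low to test. The part of these cells in the levels of the 10 genes was not tested.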
